A study of Mus musculus with 12 samples.

Results

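Transcripts of 10 genes of the p53 pathway were followed in the livers of 4 mouse genotypes: Trp53 itself, its regulators Mdm2 and Cdkn2a, and the targets Cdkn1a, Ccng1, Phlda3, Trp53inp1, Bax, Bbc3 and Pmaip1. The genes were chosen by symbol, and all 10 had a row among the 22609 genes counted. Enough reads for a test were present for 9 of them, and none of the 9 passed the test for a difference between genotypes. The study asked how astrocyte elevated gene-1 (AEG-1, the product of Mtdh) and the transcription factor c-Myc act together in liver cancer. Heterozygous Alb/AEG-1 mice were crossed with heterozygous Alb/c-Myc mice. The offspring were wild type (WT), carriers of Alb/AEG-1 (AEG1), carriers of Alb/c-Myc (MYC), or carriers of both transgenes (AEG1_MYC), with 3 adult untreated mice per genotype. In the Alb lines the albumin promoter drives the transgene in hepatocytes, so other liver cells are not meant to carry the product. Whole liver was sequenced, and sex, age in weeks, litter and batch are not in the labels.

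The protein p53 is a transcription factor that accumulates after DNA damage, oncogene activity or ribosomal stress. Its control lies largely in protein stability: the ubiquitin ligase Mdm2, itself a p53 target, marks p53 for destruction, and the Arf protein of the Cdkn2a locus blocks Mdm2 when an oncogene such as Myc is active. Stable p53 then raises genes that halt the cell cycle, such as Cdkn1a, and genes that open mitochondria in apoptosis, such as Bax, Bbc3 and Pmaip1, so target transcripts can be read as well as the level of Trp53 RNA.

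Promoter sequences of 8 members were found in the RefSeq table for build GRCm38.p6, each 300 bases long from 250 bases before an annotated start to 50 after it. They were searched for the p53 site, taken as a pair of adjacent 10-base half-sites of the p53 consensus, and for the E-box CACGTG, which Myc and other factors bind and which reads the same on both strands. The stretches below are shown because they hold the motifs through which the 2 factors are known to act. Capitals mark the p53 site in the first 3 lines and CACGTG in the last 3.
Cdkn1a, chr17:29090913-29090962, plus strand: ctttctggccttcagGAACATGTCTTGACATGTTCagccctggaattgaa
Ccng1, chr11:40755447-40755496, minus strand: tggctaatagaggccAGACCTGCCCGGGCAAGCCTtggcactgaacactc
Bbc3, chr7:16309471-16309520, plus strand: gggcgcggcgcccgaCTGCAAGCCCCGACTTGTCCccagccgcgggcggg
Trp53, chr11:69580357-69580386, plus strand: actttcccctccCACGTGctcaccctggct
Bax, chr7:45466899-45466927, minus strand: ctgcagcgagcgatgatgatCACGTGact
Bax, chr7:45466849-45466875, minus strand: ttgcggggcaccCACGTGagggccgca

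Positions are counted from the start, with -1 the base before it and 1 the first transcribed base. The Cdkn1a site differed from the consensus at 1 base and lay from -51 to -32, relative to the upstream of its 2 annotated starts. The Ccng1 site also had 1 mismatch, from -195 to -176. A site this close to the consensus occurred in 29 of 32851 promoter windows in the table, or 0.0883%. The Bbc3 site had 3 mismatches and lay from -97 to -78, relative to the first of its 3 starts. Sites with 3 or fewer mismatches occurred in 6.29% of windows, and the windows of Trp53 and Bax held one each. CACGTG occurred in 7.15% of windows. It lay from 11 to 16 at Trp53, and at Bax from -9 to -4 and again from 36 to 41. The third Bbc3 window held 1 more. These matches are descriptions of sequence, and no binding was measured.

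Libraries held 21931197 to 40552316 reads in genes, and 13684 genes passed the filter on low counts. Values are CPM, the usual depth-normalised count, taken over the reads in tested genes after TMM scaling. Myc averaged 3.26 ± 1.30 CPM (SD, n = 3) in WT livers and 4.02 ± 0.532 in AEG1 livers. It averaged 35.9 ± 15.9 in the MYC and 98.8 ± 57.9 in the AEG1_MYC genotype, and every carrier of Alb/c-Myc was above every non-carrier. Mouse Mtdh was between 97.2 and 100.3 CPM on average in all genotypes, and the labels do not say whether reads of the AEG-1 transgene could align to it, so the AEG1 labels could not be checked. All 8 hepatocyte markers had reads in every genotype, and their summed level was 118002 to 124710 CPM in WT, 93072 to 100987 CPM in AEG1, 79665 to 97570 CPM in MYC and 46274.5 to 86212 CPM in AEG1_MYC livers. In whole tissue, fewer cells of a type and less RNA per cell cannot be told apart. The libraries AEG1_MYC replicates 2 and 1 stood apart from the rest: on the first principal component, 36.0% of the variance, they lay at 99.2 and 34.1 against -27.2 to 10.7 for the other libraries. AEG1_MYC replicate 2 had the lowest hepatocyte sum and the highest sum of 5 proliferation markers, 51.1 CPM, where the rest ran from 3.64 to 25.1. Alb made up most of the hepatocyte sum, at 24138 of 46274.5 CPM in that library. Alb, Ttr, Apob, Cps1 and Tat were lowest in AEG1_MYC replicate 2. Ahsg and Hnf4a were lowest in AEG1 replicate 3, and Apoa1 in MYC replicate 2. AEG1_MYC replicate 1 had the highest sums of 6 Kupffer cell markers (736 CPM, against 95.01 to 513) and of 3 neutrophil markers (57.1 CPM, against 0.291 to 3.42). Of the Kupffer cell markers, Clec4f, Cd5l, Vsig4 and Adgre1 (Emr1) were highest in that library. Marco was highest in WT replicate 1 and Timd4 in MYC replicate 2. The part of these differences in the results was not tested.

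Of the 9 members tested, edgeR's quasi-likelihood test called 0 at an adjusted p under 0.05 in each of 8 contrasts and in the test of any difference among the 4 genotypes. Over all 13684 genes the share called was 0% for AEG1 against WT, 0% for MYC against WT, 0.263% for AEG1_MYC against WT, 0.322% for AEG1_MYC against AEG1 and 0.205% for AEG1_MYC against MYC. It was 0.0219% for the interaction of the transgenes, 0.11% for the 6 MYC carriers against the 6 other mice, 0.0512% for the 6 AEG1 carriers against the others and 0.519% for any difference. These shares rested on single libraries: without AEG1_MYC replicate 3 edgeR called 687, 630 and 450 of 13891 genes in AEG1_MYC against WT, AEG1 and MYC, and still 0 members. DESeq2 called 653, 709 and 438 genes in these contrasts with all libraries, and DESeq2 and limma also called 0 members in every contrast. At an unadjusted p under 0.05 stood 1 member, Phlda3, in AEG1_MYC against AEG1 and in MYC carriers against non-carriers, where 17.4% and 11.1% of all genes reached that p. In the comparisons with 0 members at that p, the share of all genes was 3.92% for AEG1, 3.47% for MYC and 17.2% for AEG1_MYC against WT. It was 15.2% for AEG1_MYC against MYC, 9.25% for the interaction, 9.43% for AEG1 carriers and 12.7% for any difference. The contrasts against WT share the same 3 control mice. In MYC against WT the test also did not call Myc itself, which was tested and was higher in every MYC liver than in every WT liver. That 0 members were called there therefore does not show that they were unchanged.

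**Figure D1:**
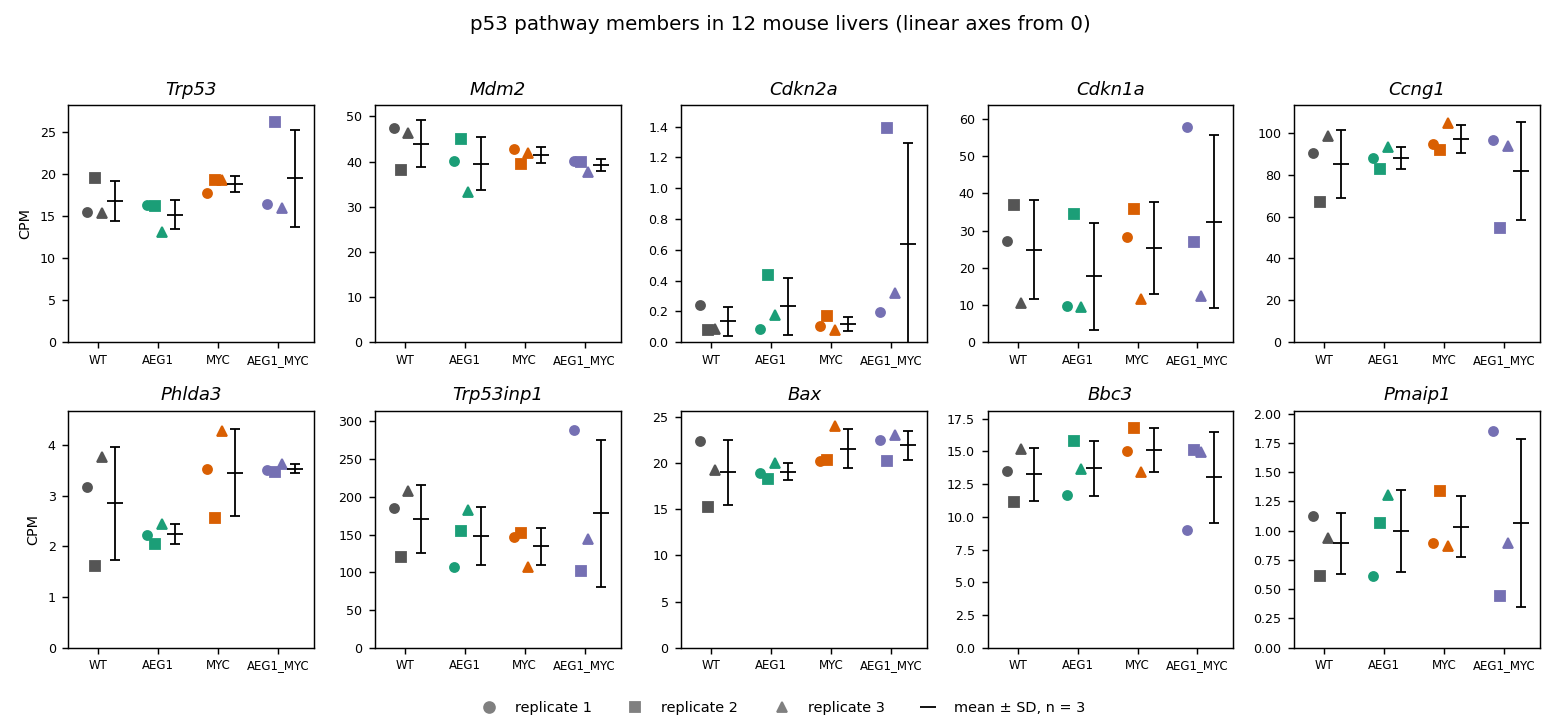
CPM (y axis, linear from 0) of the 10 members in each of 12 livers by genotype (x axis), with symbols for the replicate and a bar for the mean ± SD of 3 mice. Cdkn1a spans 9.31 to 57.8 CPM with wide spread in every genotype, while Mdm2 stays between 33.3 and 47.5 CPM in all livers.

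The direction of the members was mixed. In AEG1 against WT 4 of the 9 had a log2 fold change above 0, from -0.50 (Cdkn1a) to 0.15 (Pmaip1), with a median of -0.15 against -0.00 over all genes. In MYC against WT 7 of 9 were above 0, from -0.34 (Trp53inp1) to 0.28 (Phlda3), median 0.18. In AEG1_MYC against WT 6 of 9 were above 0, from -0.17 (Mdm2) to 0.38 (Cdkn1a), median 0.21. Without AEG1_MYC replicates 1 and 2 that median was 0.07, over all 10 members. The share of all genes above 0 was 49.7%, 49.4% and 51.6% in these contrasts. None of these differences passed the test, and the SE of a single member ran from 0.12 for Mdm2 to 0.70 for Cdkn1a. For the interaction of the transgenes the members ranged from -0.30 (Ccng1) to 0.86 (Cdkn1a).

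**Figure D2:**
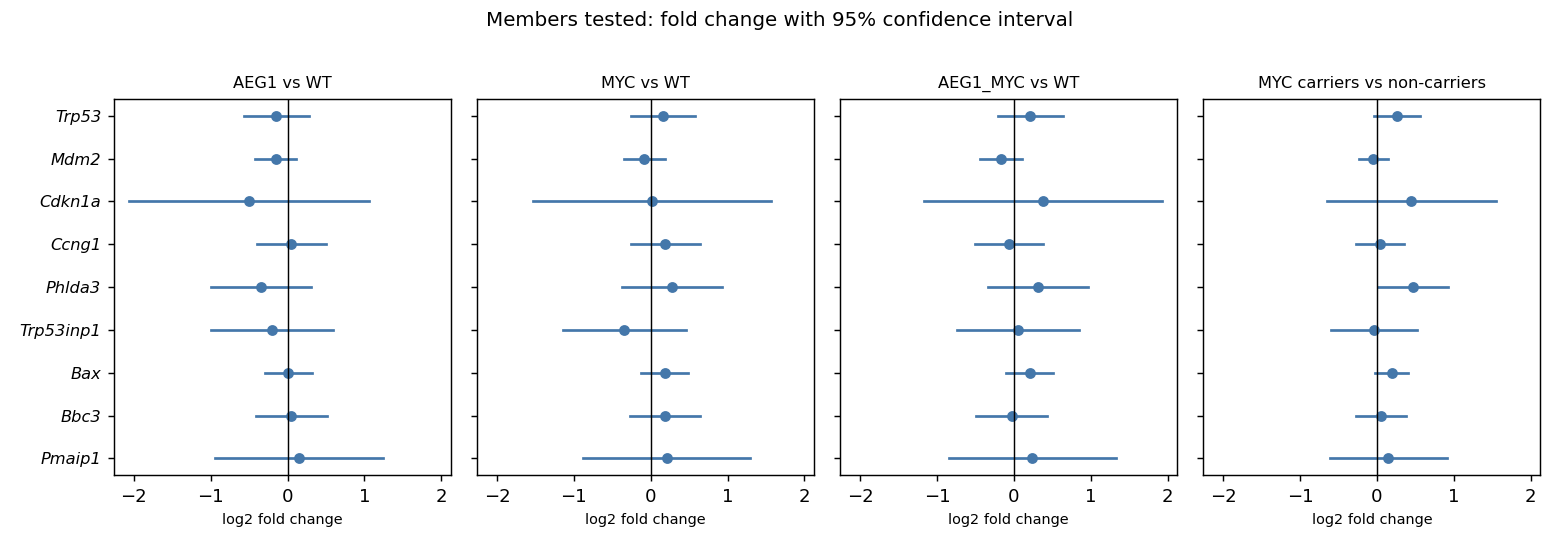
Log2 fold changes (x axis) of the 9 members tested, with 95% confidence intervals, in 4 contrasts (panels). Every interval spans 0 except that of Phlda3 in MYC carriers against non-carriers, which starts at 0.01; the Cdkn1a interval in AEG1_MYC against WT runs from -1.17 to 1.93.

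Compared per kilobase of exon, the most abundant members in WT liver were Trp53inp1 at 26.3 ± 6.99 CPM per kb (SD, n = 3) and Ccng1 at 24.3 ± 4.64, whose ranges over mice overlapped. Bax followed at 12.05 ± 2.26 and Mdm2 at 8.66 ± 1.01, with no overlap between them. Cdkn1a at 7.01 ± 3.75 overlapped Bax, Mdm2 and Bbc3, the last of which was at 6.24 ± 0.961. Trp53 itself was at 4.15 ± 0.583, below Bbc3 in every mouse, and overlapped Cdkn1a. Phlda3 was at 1.83 ± 0.713, Pmaip1 at 0.327 ± 0.0956 and Cdkn2a at 0.115 ± 0.0804 CPM per kb, each below the one before it in every mouse. Lengths are of merged exons in GENCODE M21.

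Trp53, the gene of p53, was measured at 15.5, 19.5 and 15.4 CPM in the WT livers, 16.3, 16.2 and 13.2 in AEG1, 17.7, 19.3 and 19.4 in MYC, and 16.5, 26.2 and 15.9 in AEG1_MYC. AEG1_MYC replicate 2 was the highest library and AEG1 replicate 3 the lowest, and the AEG1_MYC range overlapped each of the others. The log2 fold change against WT was -0.15 ± 0.19 (SE) in AEG1, 0.16 ± 0.19 in MYC and 0.22 ± 0.19 in AEG1_MYC, with an edgeR adjusted p of 0.572 in the last. Without AEG1_MYC replicate 2 the AEG1_MYC value was -0.05, so its sign rests on that library. MYC carriers were 0.26 ± 0.13 above non-carriers (edgeR adjusted p = 0.496). The difference of AEG1_MYC from AEG1 was 0.36 ± 0.19 (edgeR adjusted p = 0.348). It ran from 0.07 without AEG1_MYC replicates 1 and 2, and 0.09 without replicate 2 alone, to 0.50 without replicate 3. In AEG1_MYC against WT the interval of the ratio ran from 0.870 to 1.55. It rests on a spread pooled over the genotypes, but the SD of Trp53 was largest in AEG1_MYC livers. That SD was 5.79 CPM, against 0.945 to 2.36 CPM in the other genotypes. The interval could therefore be too narrow, and it does not bound the change.

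Mdm2, the ubiquitin ligase that removes p53 and is induced by it, was the steadiest member. It stood at 47.5, 38.1 and 46.4 CPM in WT, 40.2, 45.0 and 33.3 in AEG1, 42.9, 39.6 and 42.0 in MYC, and 40.1, 40.0 and 37.6 in AEG1_MYC livers. All genotypes overlapped, and the lowest and highest of the 12 values were 1.43-fold apart. Its fold change against WT was -0.16 ± 0.12 in AEG1, -0.09 ± 0.12 in MYC and -0.17 ± 0.12 in AEG1_MYC on the log2 scale (edgeR adjusted p = 0.500 in the last). The biological coefficient of variation, edgeR's estimate of the spread between mice of 1 genotype, was 0.134 for Mdm2, and 15.7% of tested genes had a lower one.

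Cdkn2a encodes both the CDK inhibitor p16Ink4a and the Mdm2 antagonist p19Arf, and 1 row of counts cannot separate them. It held 8, 2 and 2 reads in WT, 3, 9 and 7 in AEG1, 3, 6 and 3 in MYC, and 6, 47 and 10 in AEG1_MYC livers, or 12, 19, 12 and 63 reads by genotype. AEG1_MYC replicate 2 alone held 47 of them, at 1.39 CPM, and the remaining 11 ran from 0.0766 to 0.437 CPM. The 3 AEG1_MYC values were above all 3 MYC values, as were 9.64% of tested genes, but not above all WT or AEG1 values. The gene did not pass the filter on low counts. Fitted without that filter, AEG1_MYC was 2.16 ± 0.83 above WT on the log2 scale (edgeR adjusted p = 0.266) and 2.43 ± 0.83 above MYC (edgeR adjusted p = 0.274). DESeq2 gave adjusted p values of 0.177 and 0.133. Against WT the difference was 2.59 ± 0.80 without AEG1_MYC replicate 1 (edgeR adjusted p = 0.158). It was 2.49 ± 0.88 without AEG1_MYC replicate 3 (edgeR adjusted p = 0.123). Without AEG1_MYC replicate 2 the fit gave 0.86 ± 0.74 against WT (edgeR adjusted p = 0.654), a smaller difference on 16 reads. That library was also the one with the lowest hepatocyte marker sum and the highest proliferation marker sum.

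Cdkn1a, the p21 inhibitor of cyclin-dependent kinases and the textbook p53 target, varied most between mice among the 9 members tested. It was at 27.1, 37.0 and 10.6 CPM in WT, 9.62, 34.4 and 9.31 in AEG1, 28.3, 35.8 and 11.6 in MYC, and 57.8, 26.97 and 12.4 in AEG1_MYC livers. The 12 values left a gap: 5 libraries lay from 9.31 to 12.4 CPM and 7 from 26.97 to 57.8 CPM, and each of these sets held mice of all 4 genotypes. The lower set was WT replicate 3, AEG1 replicates 1 and 3, MYC replicate 3 and AEG1_MYC replicate 3. Its coefficient of variation was 0.578, higher than in 95.2% of tested genes, against a median of 0.197. The fold change was -0.50 ± 0.70 in AEG1, 0.02 ± 0.70 in MYC and 0.38 ± 0.70 in AEG1_MYC against WT on the log2 scale (edgeR adjusted p = 0.804 in the last). Without AEG1_MYC replicate 1 the last value turned to -0.32, and without replicates 1 and 2 to -0.995. The spread was such that ratios between 0.445 and 3.81 in AEG1_MYC against WT all lay inside the interval. An unclassified gene on the other strand overlaps Cdkn1a exons in GENCODE M21, and the strand setting of the counting is not given in the sources used here.

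Ccng1, cyclin G1, is a p53 target that recruits a phosphatase to Mdm2. It was at 90.3, 67.0 and 98.3 CPM in WT, 88.1, 82.9 and 93.4 in AEG1, 94.7, 91.9 and 104.8 in MYC, and 96.8, 54.6 and 93.6 in AEG1_MYC livers. WT replicate 2 and AEG1_MYC replicate 2 were the low libraries, and the other 10 lay from 82.9 to 104.8 CPM with all genotypes among them. The log2 fold change against WT was 0.05 ± 0.20 in AEG1, 0.19 ± 0.20 in MYC and -0.06 ± 0.20 in AEG1_MYC (edgeR adjusted p = 0.895 in the last). The last value turned to 0.16 without AEG1_MYC replicate 2.

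Phlda3, a p53-induced inhibitor of Akt signalling, showed the smallest p values of the set. It was at 3.17, 1.61 and 3.76 CPM in WT, 2.23, 2.04 and 2.44 in AEG1, 3.52, 2.56 and 4.27 in MYC, and 3.50, 3.47 and 3.63 in AEG1_MYC livers. All 3 AEG1_MYC livers were above all 3 AEG1 livers, as in 9.6% of all genes, and WT replicate 2 was the lowest of all 12. Against WT the log2 fold change was -0.34 ± 0.30 in AEG1, 0.28 ± 0.29 in MYC and 0.31 ± 0.29 in AEG1_MYC, and the last 2 were -0.01 and 0.03 without WT replicate 2. AEG1_MYC exceeded AEG1 by 0.66 ± 0.30 on the log2 scale (unadjusted p = 0.0487, adjusted p = 0.283, both from edgeR). MYC carriers exceeded non-carriers by 0.47 ± 0.21 (unadjusted p = 0.0467, adjusted p = 0.441). Neither passed the test over all genes. The first value was 0.61 to 0.73 over all alternatives run, with adjusted p from 0.182 to 0.764, and 0.70 without AEG1_MYC replicates 1 and 2. The second was 0.33 without WT replicate 2.

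Trp53inp1, whose protein helps p53 activate apoptotic genes and also acts in autophagy, was the member with the most reads. It was at 185, 119.9 and 207 CPM in WT, 107, 154 and 183 in AEG1, 146, 151 and 107 in MYC, and 288, 102 and 144 in AEG1_MYC livers. AEG1_MYC replicate 1 was the highest library and AEG1_MYC replicate 2 the lowest, so 1 genotype held both ends of a 2.82-fold range. The log2 fold change against WT was -0.20 ± 0.36 in AEG1, -0.34 ± 0.36 in MYC and 0.06 ± 0.36 in AEG1_MYC (edgeR adjusted p = 0.943 in the last). The last value was -0.46 without AEG1_MYC replicate 1 and 0.34 without replicate 2.

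Bax, the pore-forming effector of mitochondrial apoptosis, was at 22.4, 15.3 and 19.3 CPM in WT, 18.9, 18.3 and 20.03 in AEG1, 20.3, 20.4 and 23.98 in MYC, and 22.5, 20.2 and 23.1 in AEG1_MYC livers. All 3 AEG1_MYC livers were above all 3 AEG1 livers, by little and as in 9.6% of all genes, while the WT livers overlapped both. The log2 fold change against WT was 0.01 ± 0.14 in AEG1, 0.18 ± 0.14 in MYC and 0.21 ± 0.14 in AEG1_MYC (edgeR adjusted p = 0.458 in the last). MYC carriers were 0.19 ± 0.10 above non-carriers (edgeR adjusted p = 0.499), a ratio of 1.14 with an interval from 0.983 to 1.32. A protein-coding model on the same strand overlaps exons of Bax in GENCODE M21, so part of the reads could have been counted as ambiguous.

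Bbc3 (Puma) and Pmaip1 (Noxa) encode BH3-only proteins, which neutralise the anti-apoptotic relatives of Bcl2. Bbc3 was at 13.5, 11.1 and 15.2 CPM in WT, 11.7, 15.8 and 13.7 in AEG1, 15.02, 16.8 and 13.5 in MYC, and 8.99, 15.1 and 14.96 in AEG1_MYC livers. The groups overlapped and AEG1_MYC replicate 1 was the lowest library. Pmaip1 was the lowest member that could be tested, at 1.13, 0.613 and 0.940 CPM in WT, 0.613, 1.07 and 1.31 in AEG1, 0.898, 1.34 and 0.870 in MYC, and 1.85, 0.445 and 0.899 in AEG1_MYC livers. Here too AEG1_MYC replicates 1 and 2 were the highest and the lowest of the 12. The log2 fold change in AEG1_MYC against WT was -0.03 ± 0.21 for Bbc3 and 0.24 ± 0.49 for Pmaip1 (edgeR adjusted p = 0.960 and 0.827). Both signs rested on 1 library: without AEG1_MYC replicate 1 the values were 0.19 and -0.41.

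**Figure D3:**
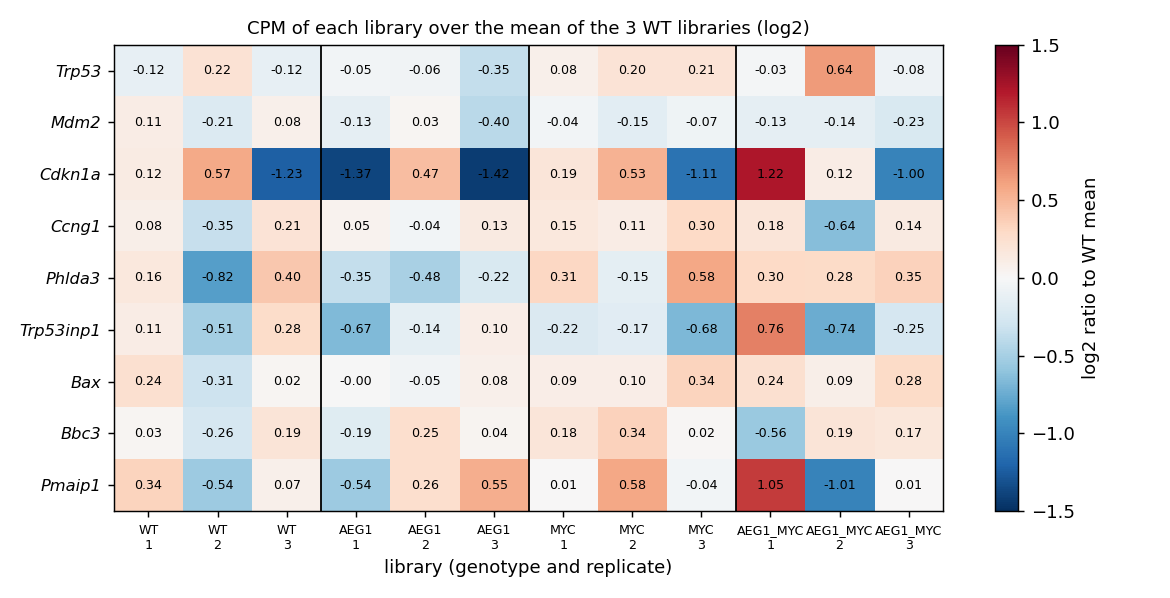
Log2 ratio of each library's CPM to the mean of the 3 WT libraries (colour and printed value) for the 9 members tested (rows) in 12 livers (columns, by genotype and replicate). Cdkn1a is low in 5 livers from all 4 genotypes, and AEG1_MYC replicates 1 and 2 have opposite signs at Trp53, Bbc3, Ccng1, Pmaip1 and Trp53inp1.

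Between genotypes, the 3 values of 1 group were all above those of the other for 2 of 9 members in AEG1_MYC against AEG1, Bax and Phlda3. Of all genes, 17.8% did not overlap in that comparison and 9.6% lay higher in AEG1_MYC. No tested member was free of overlap in AEG1 against WT, MYC against WT, AEG1_MYC against WT or AEG1_MYC against MYC, where 10.7%, 11.6%, 19.5% and 18.5% of all genes were. The same held for MYC carriers and for AEG1 carriers against the 6 other mice, with 1.08% and 0.263% of all genes. The number of the 9 members above the WT mean ranged from 1 (AEG1 replicate 1) to 8 (WT replicate 1) over the 12 libraries, with 2 in WT replicate 2.

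The genes whose levels were most like those of a member were sought among 12081 genes with a mean of at least 1 CPM over the 12 livers, which share libraries and depth. For Trp53 they were G3bp1 (r = 0.967), Gtf2h3 (0.960) and Tcfcp2 (0.923). For Mdm2 they were Ctnnb1 (0.878), Acsm1 (0.866) and Ulk3 (0.857), and for Cdkn1a Slc11a2 (0.890), Net1 (0.867) and Mkl2 (0.867). For Ccng1 they were Prex1 (0.920), Pogk (0.918) and Homer1 (0.914). For Bax they were Ptdss2 (0.945), Eda2r (0.889) and Rprd1a (0.853). These coefficients are descriptions over 12 livers and were picked as the highest of many. Except for Mkl2, each gene was lowest in the same library as its member. This was AEG1 replicate 3 for Trp53, Mdm2 and Cdkn1a, AEG1_MYC replicate 2 for Ccng1 and WT replicate 2 for Bax. Trp53 and its 3 genes were also all highest in AEG1_MYC replicate 2. The part of these libraries in the coefficients was not tested. One of the genes, Eda2r, is itself a p53 target, a receptor of the tumour necrosis factor family. It was at 5.40, 0.957 and 8.16 CPM in WT, 3.32, 2.57 and 3.87 in AEG1, 5.84, 5.21 and 9.67 in MYC, and 6.31, 5.39 and 9.21 in AEG1_MYC livers. WT replicate 2 was the lowest library. MYC carriers were 0.80 ± 0.40 above non-carriers on the log2 scale, which did not pass the test (edgeR adjusted p = 0.485).

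A list of 33 other p53 targets, among them genes of DNA repair, growth arrest and death receptors, gave 32 genes that could be tested. EdgeR called 0 of 32 in each contrast and in the test of any difference, and 0 of 33 without AEG1_MYC replicates 1 and 2, a fit in which all 33 were tested. At an unadjusted p under 0.05 stood 0 in AEG1 against WT, 1 in MYC against WT, 5 in AEG1_MYC against WT and 4 in MYC carriers, where 3.92%, 3.47%, 17.2% and 11.1% of all genes did. The list's median log2 fold change was -0.01, 0.08 and 0.18 in AEG1, MYC and AEG1_MYC against WT, beside -0.00, -0.00 and 0.01 over all genes. Without AEG1_MYC replicates 1 and 2 the last median was 0.03.

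The 2 targets with the smallest p in the test of any difference were Tnfrsf10b, the death receptor for TRAIL, and Gtse1, a G2 and S phase protein that restrains p53. Tnfrsf10b was at 0.488, 0.230 and 0.299 CPM in WT, 0.307, 0.485 and 0.502 in AEG1, 0.484, 1.09 and 1.13 in MYC, and 1.39, 2.07 and 1.03 in AEG1_MYC livers. All 3 AEG1_MYC livers were above all WT livers, as in 9.81% of all genes, on 32 to 70 reads each. The difference from WT was 2.11 ± 0.45 on the log2 scale and that of MYC carriers from non-carriers 1.59 ± 0.31, with edgeR adjusted p values of 0.0921 and 0.0840, short of the threshold. Gtse1 was at 0.885, 0.842 and 1.28 CPM in WT, 0.223, 0.388 and 0.879 in AEG1, 0.794, 1.37 and 1.63 in MYC, and 3.14, 2.19 and 2.25 in AEG1_MYC livers. Its difference between AEG1_MYC and AEG1 was 2.31 ± 0.46 (edgeR adjusted p = 0.0745). Gtse1 is made in dividing cells, and the sum of 5 proliferation markers was 24.5 to 51.1 CPM in AEG1_MYC livers against 3.64 to 15.1 in all others; its part in these values was not tested.

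**Figure D4:**
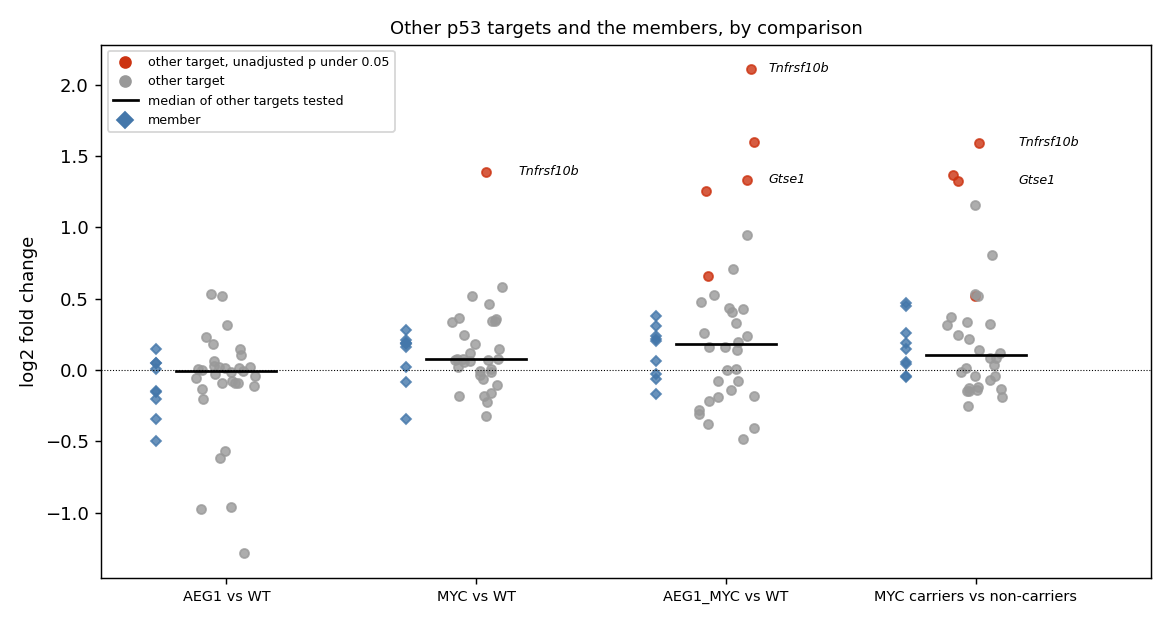
Log2 fold changes (y axis) of 32 other p53 targets (circles, red at an unadjusted p under 0.05) and of the 9 members tested (blue diamonds) in 4 contrasts (x axis), with a bar at the median of the other targets. Tnfrsf10b is the highest circle in AEG1_MYC against WT, at 2.11, and most genes lie within 0.5 of 0.

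Among 22 regulators of p53, including kinases, ligases, acetyltransferases and ribosomal proteins that bind Mdm2, edgeR called 0 in every contrast. Their median log2 fold change was 0.04, 0.10 and 0.11 in AEG1, MYC and AEG1_MYC against WT. The 2 with the smallest p in the test of any difference were Rpl23, a ribosomal protein that binds Mdm2, and Npm1, the nucleolar phosphoprotein that holds Arf. Rpl23 was at 26.02, 27.8 and 20.7 CPM in WT, 22.4, 26.4 and 25.2 in AEG1, 32.2, 38.9 and 34.6 in MYC, and 30.4, 43.2 and 35.3 in AEG1_MYC livers, so all 6 MYC carriers were above all non-carriers, as in 0.687% of all genes. Npm1 was at 37.8, 36.4 and 32.0, then 30.3, 30.96 and 40.9, then 43.8, 48.3 and 47.7, and 48.6, 66.3 and 45.3 CPM in the same order, again with no overlap. The difference of MYC carriers was 0.53 ± 0.11 for Rpl23 and 0.52 ± 0.11 for Npm1 (edgeR adjusted p = 0.0954 and 0.119), and neither passed the test. Both genes have processed pseudogenes, and reads aligned to several places were not counted, so their levels are uncertain. The same limit holds for Rpl5 and Rpl11 of this list, which averaged only 1.49 and 0.904 CPM over the 12 livers. That they were not called does not show that they were unchanged. Of the 22 regulators 2 reached an unadjusted p under 0.05 in MYC against WT, 5 in AEG1_MYC against WT, 6 in AEG1_MYC against AEG1 and 4 in MYC carriers. The shares of all genes at that p were 3.47%, 17.2%, 17.4% and 11.1%.

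Of 10 repressors and activators of the Cdkn2a locus, edgeR called 0, and the median in AEG1_MYC against WT was 0.08, which turned to -0.05 without AEG1_MYC replicates 1 and 2. The 2 leading ones were Cbx7, a Polycomb protein that silences the locus, at -0.43 ± 0.16 in MYC and 0.15 ± 0.16 in AEG1_MYC against WT on the log2 scale, and Ets1, an activator, at -0.02 ± 0.17 and -0.28 ± 0.17. The test of any difference gave edgeR adjusted p values of 0.295 and 0.386. Of 5 other CDK inhibitors 4 were tested and 0 called, with a median of 0.35 in AEG1_MYC against WT and 0.08 without AEG1_MYC replicates 1 and 2. Cdkn2c, which encodes p18Ink4c, was at 2.14, 1.49 and 1.24 CPM in WT, 0.948, 1.41 and 4.47 in AEG1, 2.38, 3.40 and 2.61 in MYC, and 5.25, 16.3 and 5.46 in AEG1_MYC livers. The 3 AEG1_MYC livers were above all WT livers, as in 9.81% of all genes, and AEG1_MYC replicate 2 was the highest. Its difference from WT was 2.46 ± 0.61 (edgeR adjusted p = 0.122). Cdkn1c, the second in that list, was 0.34 ± 0.32 above WT in AEG1_MYC (edgeR adjusted p = 0.601).

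In 18 genes of mitochondrial apoptosis outside the members, 1 passed the test and was higher: Hrk, which encodes the BH3-only protein Harakiri and, unlike Bbc3 and Pmaip1, is not a standard p53 target. The list's median in AEG1_MYC against WT was 0.02, beside 0.01 over all genes. Hrk held 0.305, 0.268 and 0.342 CPM in WT, 0.307, 0.388 and 0.226 in AEG1, 0.691, 1.92 and 2.08 in MYC, and 2.91, 11.6 and 2.05 in AEG1_MYC livers, from 7 to 391 reads. All 6 MYC carriers were above all 6 other livers, as in 0.687% of all genes, with AEG1_MYC replicate 2 far above the rest. Hrk rose in AEG1_MYC against WT by 4.16 ± 0.71 on the log2 scale (edgeR adjusted p = 0.0475), against AEG1 by 4.19 ± 0.71 (0.0452), and in MYC carriers by 3.27 ± 0.49 (0.0468), where 0.256%, 0.3% and 0.095% of all genes were called higher. In MYC against WT it was 2.36 ± 0.69 higher, which did not pass (edgeR adjusted p = 0.999). The call against WT held in 7 of 21 alternatives, among them DESeq2 (adjusted p = 5.1e-07), with adjusted p values up to 0.286. Without AEG1_MYC replicate 2 the value was 3.01 (edgeR adjusted p = 0.0529), and without replicates 1 and 2 it was 2.74 (0.276).

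**Figure D5:**
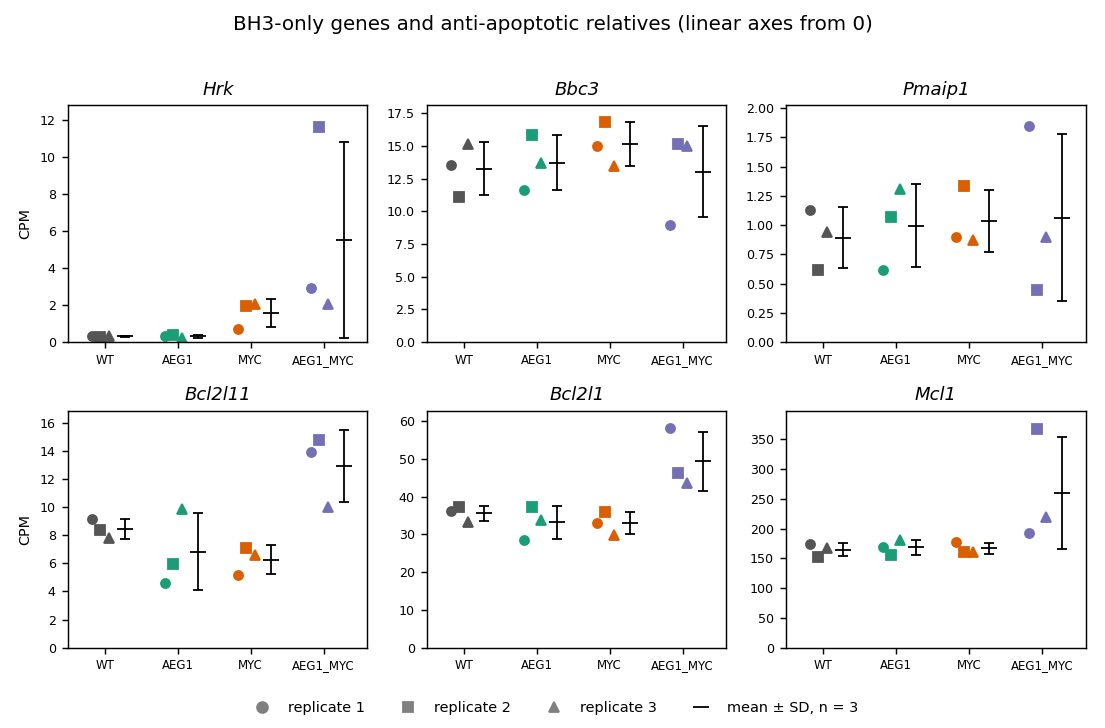
CPM (y axis, linear from 0) of Hrk, of the members Bbc3 and Pmaip1, and of Bcl2l11, Bcl2l1 and Mcl1, in each liver by genotype (x axis), with the mean ± SD of 3 mice. Hrk lies from 0.226 to 0.388 CPM in all 6 livers without the c-Myc transgene and from 0.691 to 11.6 CPM in the 6 with it.

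Bcl2l11, Bcl2l1 and Mcl1 were added after their values were seen. Bcl2l11 encodes the BH3-only protein Bim, and Bcl2l1 and Mcl1 encode anti-apoptotic proteins that such proteins bind. Bcl2l11 was 8.45 ± 0.706 CPM in WT and 12.9 ± 2.56 in AEG1_MYC livers (SD, n = 3), Bcl2l1 35.6 ± 1.99 and 49.4 ± 7.76, and Mcl1 165 ± 11.02 and 260.4 ± 93.97. In all 3 the lowest AEG1_MYC liver was above the highest WT liver, as in 9.81% of all genes. None passed the test, with edgeR adjusted p values of 0.269, 0.150 and 0.169. They do not stand for their list, in which 11 of 18 genes had a log2 fold change above 0 in AEG1_MYC against WT, beside 51.6% of all genes. Bcl2 and its relative Bcl2l2, also in the list, averaged 2.65 and 45.3 CPM in WT and 2.54 and 45.6 CPM in AEG1_MYC livers.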

How the data were processed

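Liver RNA of 12 mice was sequenced, 3 per genotype, and grouped by the genotype in the labels. Replicates are numbered by accession, and a number only names a mouse. The authors deposited raw read counts per gene for each library, made with CASAVA 1.8.2, TopHat2 2.0.7 on build mm9 and HTSeq, per the submitters' processing notes. The HTSeq version, annotation and strand setting are not given in the sources used here. The summary lines of each table stayed out of all totals: alignments to several places were 46.5% to 58.0% of a table, and reads in no feature 11.5% to 15.5% of those uniquely aligned. Reads shared by near-identical genes were therefore not counted.

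These counts went into edgeR 4.0.16 (R 4.3.3): filterByExpr left 13684 of 22609 genes, libraries were scaled by TMM, and 1 coefficient per genotype was fitted over all 12 libraries with the robust quasi-likelihood F test. P-values are two-sided and Benjamini-Hochberg adjusted over all genes tested, with 0.05 as the threshold for a call. The fits were tested on simulated counts. The 8 contrasts were AEG1, MYC and AEG1_MYC against WT, AEG1_MYC against AEG1 and against MYC, the interaction, and carriers against non-carriers of each transgene. The SE was obtained as the log2 fold change over the square root of F, and intervals are at 95%. Lists are described by counts and medians, with no set test.

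Members and lists were chosen with earlier results of these data known. Genes named are the members, called genes of each list (the 2 with the smallest p in the test of any difference where none was called), and the 3 genes most like each of 5 members by Pearson r of log2 CPM. Other settings tried were upper-quartile or RLE scaling, no filter, a filter of 1 CPM in 3 libraries, no robust step, DESeq2 1.42.0, limma 3.58.1 with library quality weights, the compared libraries alone, and leaving out libraries. Mice were the replicates, so each p-value sets a difference against the spread between mice, which the main fit pools over the 4 genotypes. Mice of the AEG1_MYC genotype differed more from each other than mice of the other genotypes did. The pooled spread does not follow this.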

Additional observations from a re-analysis of the deposited data

How the results depend on the processing

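In each of 21 alternatives edgeR, DESeq2 and limma called 0 members in every comparison run. The smallest adjusted p of the 9 members tested was 0.161, for Trp53 in AEG1_MYC against AEG1 with AEG1_MYC replicate 3 left out. Cdkn2a, which only some alternatives tested, reached an edgeR adjusted p of 0.116 in AEG1_MYC against MYC with the same library left out. It has no value in the main fit, so the sign counts below leave it out. Of 1485 member values 117 changed sign, 13 of them among the 549 values that left out no library. Where the value had been larger than its SE, 4 signs turned. Trp53 in AEG1_MYC against WT went from 0.22 to -0.053 without AEG1_MYC replicate 2 and to -0.072 without replicates 1 and 2, and leaving out 1 library at a time it ran from -0.053 to 0.36. Cdkn1a in AEG1_MYC against AEG1 went from 0.88 to -0.50 without both, and Trp53inp1 in AEG1_MYC against MYC from 0.40 to -0.13 without AEG1_MYC replicate 1, with 0.68 as the highest value when 1 library was left out. With both left out, the spread of the lone AEG1_MYC library is taken from the other genotypes.

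Counts over all genes depended on the tool and on single libraries. For AEG1_MYC against WT edgeR called 36 genes, DESeq2 653 and limma 23, and edgeR called 6 without WT replicate 2, 687 without AEG1_MYC replicate 3 and 4 without AEG1_MYC replicates 1 and 2. For AEG1 and MYC against WT the tools, in that order, called 0 and 0, 15 and 28, and 0 and 0. No paired analysis was possible because the labels give the genotypes no shared replicate numbers. With 3 mice per genotype, the SEs of members ran from 0.12 to 0.70 on the log2 scale against WT. The intervals show the changes that the values of each member allow under the pooled spread, and they are not limits of detection. A call needed an adjusted p under 0.05 over all genes tested, which is stricter than an interval clear of 0.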

Other observations

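Trp63 and Trp73, the relatives of Trp53, were below the filter on low counts and were chosen for description after their values were seen. Trp63 had 0 reads in 8 of 12 libraries, where a count of 0 allows up to 0.0753 to 0.128 CPM by counting error, at 3 reads per library. It had 1 read in AEG1 replicate 2 and 3, 33 and 2 reads in AEG1_MYC replicates 1, 2 and 3, or 0.978 CPM in replicate 2. Trp73 had 0 reads in 9 libraries and at most 2 in the others. The library with the Trp63 reads was the one with the highest Trp53 and Cdkn2a levels and the lowest Ccng1, Pmaip1 and Trp53inp1 levels of the 12.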
